A study of Mus musculus with 4 samples.

Results

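The genes described here are 10 genes of the ATF4 arm of the integrated stress response, namely Atf4, Atf5, Ddit3, Ddit4, Trib3, Asns, Chac1, Sesn2, Psat1 and Phgdh. They were found by symbol in a deposited table of 54532 mouse genes, where they occupy 11 rows because Ddit3 has 2. RNA sequencing covered 4 libraries, 2 labelled Piezo1KO and 2 labelled WT, with no age, sex or other allele in the labels and no word on how or in which cells Piezo1 was deleted. All 4 are labelled as CD4+ T cells from B16 tumours, a pigmented mouse melanoma, and the series asks how the mechanically gated channel Piezo1 acts in the differentiation of Th9 cells. Libraries are called by the sample number in their titles (Piezo1KO 1, Piezo1KO 2, WT 1, WT 2). The submitters' own column names differ: WT 1 is their WT2 and WT 2 is their WT3. Piezo1KO 1 is their KO1 and Piezo1KO 2 is their KO2. No label tells if libraries with the same genotype were taken from separate mice. The p-values therefore measure only the spread between libraries, which may be technical.

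In the integrated stress response, kinases that sense unfolded proteins, missing amino acids, haem shortage or viral RNA phosphorylate the initiation factor eIF2. General translation then slows, while the mRNA of Atf4 is translated more because of short reading frames upstream of its coding sequence. ATF4, a basic leucine zipper transcription factor, induces genes for amino acid synthesis and uptake, for damping of growth signals and, through CHOP, for cell death. An mRNA level therefore gives only part of the state of the pathway, and neither eIF2 phosphorylation nor ATF4 protein was measured here.

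ATF4 and its C/EBP partners bind a composite element, and the sequences below show the 3 genes among the 10 whose RefSeq promoter window (GRCm38.p6, 250 bases before to 50 after the start) held the letters TGATGNAA on either strand. Capitals mark the match, and lines read 5′ to 3′ on the strand of the gene. The Chac1 match lies 193 bases before the start and the Asns match 23 bases before it, while the Trib3 match lies 14 bases after it. The printed stretches are chr2:119350992-119351071 on the plus strand for Chac1, chr6:7693210-7693322 on the minus strand for Asns and chr2:152344029-152344056 on the minus strand for Trib3.
Chac1: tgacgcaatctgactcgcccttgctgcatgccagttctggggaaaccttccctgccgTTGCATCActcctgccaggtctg
Asns: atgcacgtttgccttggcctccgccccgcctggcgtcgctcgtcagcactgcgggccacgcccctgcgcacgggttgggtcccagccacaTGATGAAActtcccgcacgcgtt
Trib3: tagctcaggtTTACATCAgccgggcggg

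All 10 genes had a window, 12 windows in all, and 3 windows (25%) held the element, against 3.97% of the 32851 mouse windows. The 10 genes were listed as ATF4 pathway and target genes, so this share is a description of the list and was not tested. The letters were not in the windows of Atf4, Atf5, Ddit3, Ddit4, Sesn2, Psat1 and Phgdh, which says nothing of sites elsewhere. Of 211 tested genes with the element in a window, the median log2 fold change of Piezo1KO over WT was 0.018, against -0.030 in 7912 tested genes whose windows lacked it.

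The libraries held 13789266 to 15331499 assigned reads in Piezo1KO and 15645069 to 15892797 in WT, and mitochondrial transcripts took 20.1% and 48.3% of them in Piezo1KO 1 and Piezo1KO 2 against 3.86% and 2.99% in WT 1 and WT 2. The 12 T cell markers were nearly absent, at 0.00162% to 0.00558% of assigned reads in Piezo1KO and 0.000988% to 0.00145% in WT. Of these, Cd3e had 0 reads in Piezo1KO 2, and 5 markers had 0 reads in WT 1. The 9 melanocyte markers took 1.27% to 2.36% in Piezo1KO and 2.88% to 2.94% in WT, so the levels below cannot be assigned to T cells. As summed FPKM the melanocyte markers had 7446 and 7326 in Piezo1KO 1 and Piezo1KO 2, against 6761 and 6788 in WT 1 and WT 2. The T cell markers summed to an FPKM of 16.7 and 10.7 in Piezo1KO 1 and Piezo1KO 2, against 2.56 and 2.43 in WT 1 and WT 2. Haemoglobin transcripts (4 genes) summed to an FPKM of 5094 and 8445 in Piezo1KO 1 and Piezo1KO 2 against 385 and 241 in WT 1 and WT 2. For 8 myeloid markers the sums were 395 and 196 in Piezo1KO 1 and Piezo1KO 2, against 53.1 and 39.4 in WT 1 and WT 2. The targeted gene, Piezo1, had an FPKM of 18.7 and 7.64 in Piezo1KO 1 and Piezo1KO 2, against 27.8 and 27.6 in WT 1 and WT 2 (limma adjusted p = 0.166). How far these differences between libraries enter the values below was not tested. In bulk RNA, a change in the number of cells of a type and a change in RNA per cell cannot be told apart.

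The question of the comparison was whether these stress response genes differ between Piezo1KO and WT libraries. Of the 10 genes, 8 were higher in both Piezo1KO libraries than in both WT libraries with the values as deposited, namely Atf4, Atf5, Ddit3, Trib3, Ddit4, Asns, Phgdh and Psat1, whereas none was when the libraries were scaled to all assigned reads, where 7.46% of all genes tested were. None of the 10 passed the limma test at an adjusted p of 0.05, and 6 had an unadjusted p under that value. Among all 11085 genes tested, 0.731% passed as higher and 0.370% as lower, 3170 genes had an unadjusted p under 0.05, 33.9% were higher in both Piezo1KO libraries without overlap, and 35.6% were lower. The median log2 fold change was 0.62 over the 10 genes and -0.0059 over all genes tested. All 10 passed the filter of a mean FPKM of at least 1, and each had a mean above 1 in both groups. Chac1 and Sesn2 stood apart from the other 8, since Piezo1KO 1 was the highest and Piezo1KO 2 the lowest of the 4 libraries for both.

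Leaving out 1 library changed the calls, in fits where the lone library of a group is assumed to vary like the pair of the other group. Without Piezo1KO 1, the same 8 genes passed as higher and Sesn2 as lower, where 27.5% of all genes passed as higher and 25.4% as lower. Without Piezo1KO 2, Atf4, Ddit3, Trib3 and Phgdh passed as higher, against 9.71% of all genes. Without WT 1 or WT 2 no gene of the 11085 passed in limma, and 723 and 616 had an unadjusted p under 0.05.

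**Figure D1:**
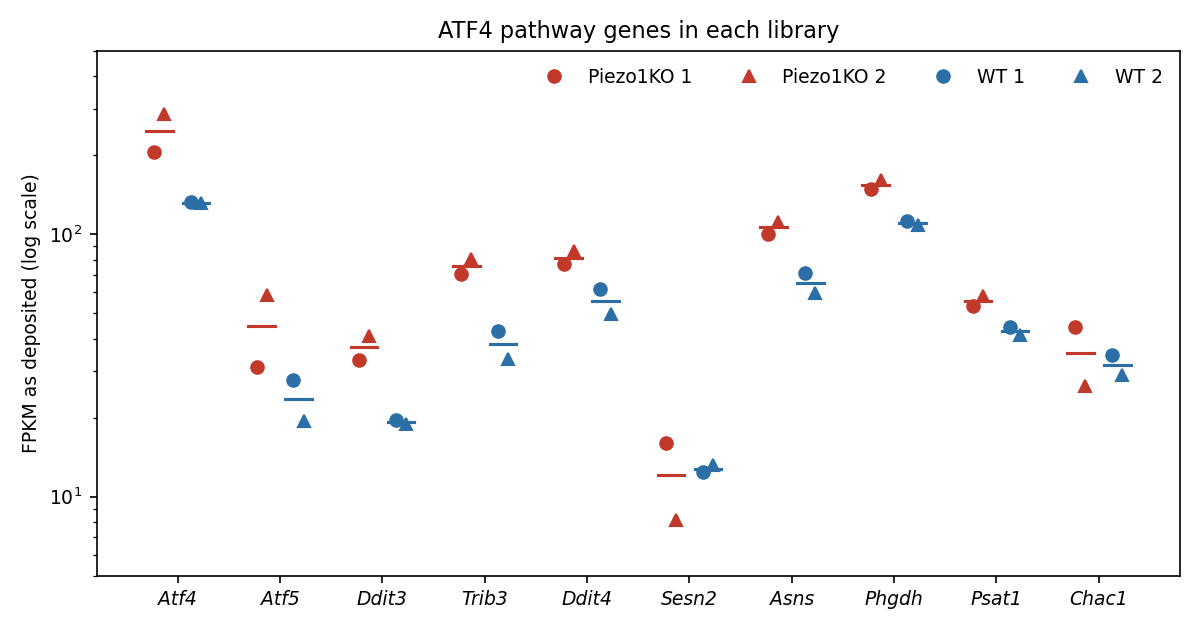
FPKM as deposited (log axis) of the 10 ATF4 pathway genes in each library, with circles for replicate 1, triangles for replicate 2 and lines at the mean of 2 libraries, Piezo1KO in red and WT in blue. The Piezo1KO points lie above the WT points for 8 genes, and spread to both sides of them for Sesn2 and Chac1.

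Among the transcription factors, Atf4 (ENSMUSG00000042406, GRCm38 chromosome 15, 80255184 to 80257541), the central factor, had an FPKM of 205 and 288 in Piezo1KO 1 and Piezo1KO 2, against 133 and 131 in WT 1 and WT 2. These values rest on 7131 and 5091 reads in Piezo1KO 1 and Piezo1KO 2, and on 6175 and 6296 in WT 1 and WT 2. The WT libraries lay close together, and Piezo1KO 2 stood further above them than Piezo1KO 1. Means were 246.6 ± 58.7 in Piezo1KO and 132 ± 1.12 in WT (SD, n = 2 each). On the log2 scale the difference was 0.88 ± 0.24 (standard error, limma adjusted p = 0.137). With 2 libraries against 2, an exact permutation test of a single gene cannot give a two-sided p below 0.333.

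Ddit3 encodes CHOP, the factor that ties prolonged stress to cell death. Its main row (ENSMUSG00000025408, chromosome 10, 127290774 to 127296288) had an FPKM of 33.3 and 40.8 in Piezo1KO 1 and Piezo1KO 2, against 19.5 and 18.9 in WT 1 and WT 2. The groups did not overlap, and the distance between them was larger than the spread within either. The log2 fold change was 0.91 ± 0.16 (standard error), and the limma adjusted p of 0.0972 was the smallest among the 10 genes.

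The second Ddit3 row (ENSMUSG00000116429, chromosome 10, 127290829 to 127293753) is a protein-coding entry of 105 exonic bases, all of which lie inside exons of the main row. It had 0 reads in all 4 libraries. A floor of 3 reads would give it an FPKM of 1.94 and 3.81 in Piezo1KO 1 and Piezo1KO 2, and of 1.45 and 1.40 in WT 1 and WT 2. How reads that fall in both Ddit3 rows were counted was not stated, so neither the 0 nor the floor bounds its expression. The main row also shares 68 exonic bases with Mars and 13 with Gm4189 on the opposite strand, and the strand setting of the counting was not stated in any source at hand. The Ddit3 value is uncertain to the extent of these overlaps, with the second Ddit3 row included.

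Atf5, a close relative of ATF4 that is translated under the same kind of control and linked to the mitochondrial stress response, had an FPKM of 31.1 and 58.6 in Piezo1KO 1 and Piezo1KO 2. Its values in WT 1 and WT 2 were 27.8 and 19.4. Piezo1KO 1 lay only just above WT 1, and Piezo1KO 2 supplied most of the distance between the groups. The log2 fold change was 0.85 ± 0.36 (standard error, limma adjusted p = 0.198), and it was 0.41 without Piezo1KO 2. Atf5 shares 82 exonic bases with Nup62 and with Il4i1 on the opposite strand.

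Trib3, a pseudokinase that is induced by ATF4 and CHOP and feeds back on both, had the largest log2 fold change of the 10 genes. Its FPKM was 70.3 and 80.7 in Piezo1KO 1 and Piezo1KO 2, against 42.6 and 33.4 in WT 1 and WT 2. The lower Piezo1KO value lay well clear of the higher WT value. The log2 fold change was 0.98 ± 0.19 (standard error, limma adjusted p = 0.113).

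Ddit4 and Sesn2 both restrain mTORC1, the kinase complex that drives growth when nutrients are plentiful, and they did not move alike. Ddit4, which encodes REDD1, had an FPKM of 77.0 and 86.1 in Piezo1KO 1 and Piezo1KO 2, against 61.6 and 49.5 in WT 1 and WT 2. Its log2 fold change was 0.55 ± 0.19 (standard error, limma adjusted p = 0.156). Sesn2, a leucine-binding sestrin, had an FPKM of 16.04 and 8.14 in Piezo1KO 1 and Piezo1KO 2, against 12.4 and 13.2 in WT 1 and WT 2. The Piezo1KO values of Sesn2 thus enclosed the WT values, and its log2 fold change was -0.14 ± 0.32 (standard error, limma adjusted p = 0.769). The Piezo1KO 2 value of Sesn2 rests on 212 reads, the smallest number behind any tested value of these genes.

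Of the enzymes of amino acid synthesis, Phgdh and Asns were among the most abundant of the 10, and Psat1 lay near the middle. Asns, which makes asparagine from aspartate and glutamine, had an FPKM of 100.5 and 111.7 in Piezo1KO 1 and Piezo1KO 2, against 71.1 and 59.7 in WT 1 and WT 2. Its log2 fold change was 0.69 ± 0.18 (standard error, limma adjusted p = 0.132). No overlap was seen between the groups.

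Phgdh and Psat1 catalyse the first and the second step of serine synthesis from glycolysis. Phgdh had an FPKM of 148.6 and 160.5 in Piezo1KO 1 and Piezo1KO 2, against 111.8 and 108.4 in WT 1 and WT 2 (log2 fold change 0.48, standard error 0.17, limma adjusted p = 0.160). Psat1 had 53.4 and 57.9 in Piezo1KO 1 and Piezo1KO 2, against 44.4 and 41.4 in WT 1 and WT 2 (log2 fold change 0.37, standard error 0.15, limma adjusted p = 0.186). Both enzymes differed little within each group, and both had smaller changes than Asns. Psph, the phosphatase of the last step, had 10.6 and 18.7 in Piezo1KO 1 and Piezo1KO 2, against 8.18 and 7.78 in WT 1 and WT 2 (log2 fold change 0.75, limma adjusted p = 0.171).

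Chac1 encodes a cyclotransferase that degrades glutathione and is a target of ATF4 and CHOP. It had an FPKM of 44.4 and 26.3 in Piezo1KO 1 and Piezo1KO 2, against 34.8 and 29.0 in WT 1 and WT 2. The groups overlapped. Chac1 carries the element printed above, as do Asns and Trib3, whose groups did not overlap. Of the genes among the 10 whose windows lacked the element, Sesn2 overlapped and the others did not. The log2 fold change of Chac1 was 0.10 ± 0.29 (standard error, limma adjusted p = 0.812). Leaving out Piezo1KO 2 gave 0.47, and leaving out Piezo1KO 1 gave -0.26. Sesn2 likewise had 0.31 without Piezo1KO 2 and -0.59 without Piezo1KO 1, and it passed as lower without Piezo1KO 1 (limma adjusted p = 0.0133).

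The order of levels per length was nearly shared between the groups. Atf4 came first, followed by Phgdh and then Asns in both, and Sesn2 came last. In Piezo1KO the neighbours Ddit4 and Trib3, and then Psat1, Atf5, Ddit3 and Chac1 in turn, overlapped in their libraries. In WT the overlapping neighbours were Asns and Ddit4, Psat1 and Trib3, Trib3 and Chac1, and Atf5 and Ddit3. Ddit3 was ninth at a mean FPKM of 19.2 ± 0.407 in WT (SD, n = 2), and eighth at 37.1 ± 5.32 in Piezo1KO (SD, n = 2).

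FPKM depends on the total by which a library is divided. The totals implied by the deposited values were 0.962 and 0.544 times the assigned reads in Piezo1KO 1 and Piezo1KO 2, against 1.26 and 1.28 times in WT 1 and WT 2, which puts Piezo1KO values higher relative to WT than division by assigned reads would. How the authors set these totals is not stated, so the values were also read in ways that do not depend on them. Among 22033 protein-coding nuclear genes, 160 and 171 lay above Atf4 in Piezo1KO 1 and Piezo1KO 2, against 201 and 194 in WT 1 and WT 2. For Ddit3 the numbers were 1337 and 1234 in Piezo1KO 1 and Piezo1KO 2, against 2111 and 2149 in WT 1 and WT 2. Trib3 had 567 and 613 genes above it in Piezo1KO, against 873 and 1133 in WT. These 3 genes ranked higher in both Piezo1KO libraries and the other 7 overlapped, while 27.9% of the 9927 protein-coding nuclear genes tested ranked higher without overlap. A share of 3 in 10 is near that background.

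Relative to Atf4 in the same library, 5 of the other 9 genes were lower in both Piezo1KO libraries, namely Ddit4, Sesn2, Psat1, Phgdh and Chac1. Of all other genes tested, 80.4% were lower than in WT by this measure and 5.79% higher. Phgdh stood at 72.5% and 55.7% of the Atf4 level in Piezo1KO 1 and Piezo1KO 2, against 84.2% and 82.6% in WT 1 and WT 2. Sesn2 stood at 7.82% and 2.83% in Piezo1KO 1 and Piezo1KO 2, against 9.35% and 10.02% in WT 1 and WT 2. Ddit3 kept close to Atf4, at 16.2% and 14.2% in Piezo1KO 1 and Piezo1KO 2, against 14.7% and 14.4% in WT 1 and WT 2. The ratios of Atf5, Trib3 and Asns to Atf4 overlapped between groups too.

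**Figure D2:**
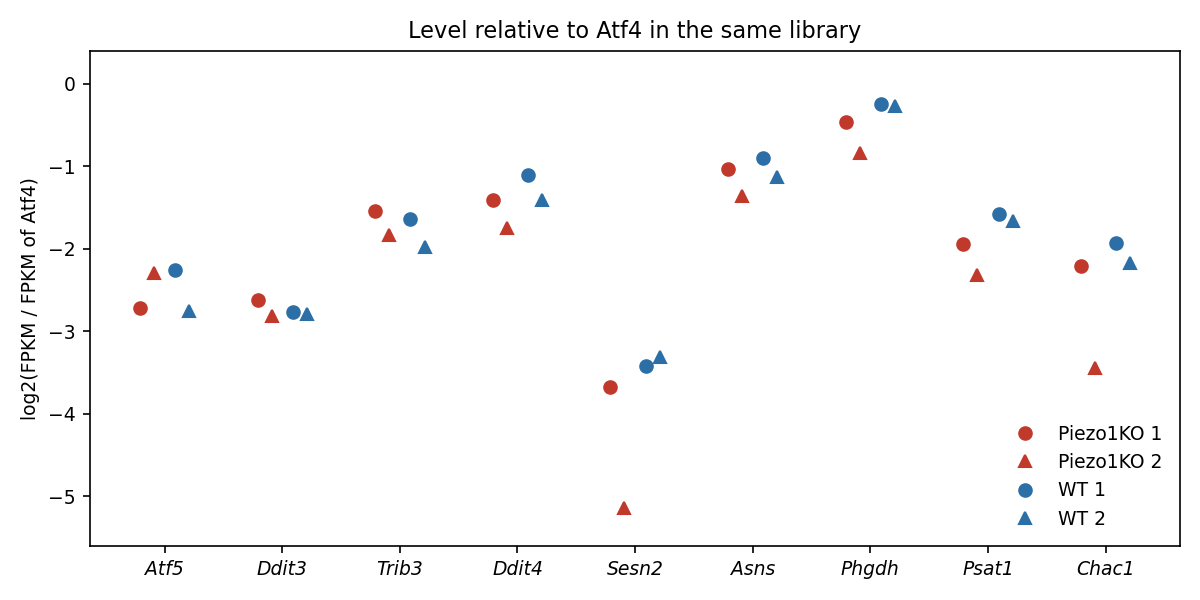
Level of 9 genes relative to Atf4 in the same library, as log2 of the FPKM ratio, with Piezo1KO in red left of WT in blue, circles for replicate 1 and triangles for replicate 2. Piezo1KO points lie below WT points for Ddit4, Sesn2, Phgdh, Psat1 and Chac1, and the sets overlap for Atf5, Ddit3, Trib3 and Asns.

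Together the 10 genes took 0.227% and 0.232% of assigned reads outside mitochondrial genes in Piezo1KO 1 and Piezo1KO 2, against 0.179% and 0.164% in WT 1 and WT 2. The exact 95% binomial intervals, which cover counting error only, were at most 0.236% and at least 0.225% in Piezo1KO, and at most 0.181% and at least 0.162% in WT. With mitochondrial reads in the denominator the shares were 0.182% and 0.120% in Piezo1KO 1 and Piezo1KO 2, against 0.172% and 0.159% in WT 1 and WT 2. The direction of the summed share in Piezo1KO 2 thus depended on whether mitochondrial reads were counted.

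Scaled to all assigned reads, which moved the median of all genes to -0.67, the 10 genes had a median log2 fold change of -0.18, which is 0.49 above that of all genes, against 0.63 above it as deposited. Under that scaling Asns, Ddit4, Phgdh, Psat1 and Chac1 turned to -0.11, -0.25, -0.32, -0.43 and -0.68. Atf4, Atf5, Ddit3 and Trib3 kept a positive sign, at 0.067, 0.065, 0.12 and 0.18, and Sesn2 had -0.87. None of the 10 genes was higher in both Piezo1KO libraries without overlap, and Psat1 and Sesn2 were lower in both. Of all genes tested under that scaling, 7.46% were higher and 73.0% lower. Scaled to reads outside mitochondrial genes, the same 8 genes as with the deposited values were higher in both Piezo1KO libraries, against 22.6% of all genes tested, and 48.3% of all genes were lower. The median log2 fold change was then 0.40 over the 10 genes and -0.20 over all. After quantile normalisation, which gives every library one distribution of values, Ddit3 and Trib3 alone among the 10 stayed higher without overlap, at 0.66 and 0.55, against 28.1% of all genes tested, and Atf4 had 0.093. The median of the 10 genes was then 0.084, only 0.15 above that of all genes tested (-0.070), and 4 of the 10 had a negative value. None of the 10 passed under any of these scalings.

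**Figure D3:**
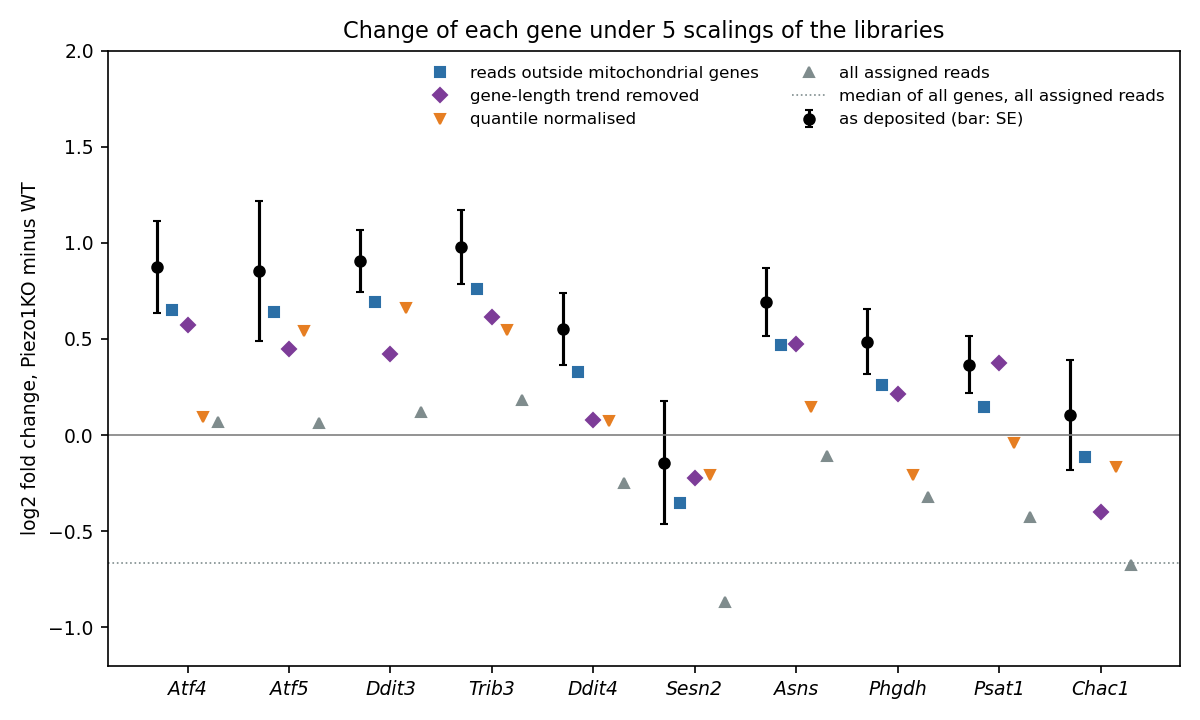
Log2 fold change of each gene, Piezo1KO minus WT, with the deposited FPKM (black, bars are the standard error from limma) and under 4 alternatives, with a dotted line at -0.67, the median of all genes scaled to all assigned reads. Atf4, Atf5, Ddit3 and Trib3 lie above 0 in all 5 settings, and Sesn2 lies below 0 in all 5.

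Gene length moved with the comparison as well. Among all genes tested the median log2 fold change was 0.62 for 1682 genes of up to 1500 bases and -0.23 for 4809 genes over 4500 bases. The 10 genes span 1637 bases (Chac1) to 4254 bases (Psat1), and 4 of them lie between 1500 and 2000 bases, where the median of 709 genes was 0.41. With the trend on length removed, the log2 fold changes were 0.61 for Trib3, 0.57 for Atf4, 0.48 for Asns, 0.45 for Atf5, 0.42 for Ddit3, 0.38 for Psat1, 0.21 for Phgdh, 0.080 for Ddit4, -0.23 for Sesn2 and -0.40 for Chac1. Atf5 and Ddit4 then overlapped between groups, which left 6 of the 10 higher in both Piezo1KO libraries, against 28.4% of all genes tested under that setting. The median log2 fold change was 0.40 over the 10 genes and -0.034 over all genes tested.

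**Figure D4:**
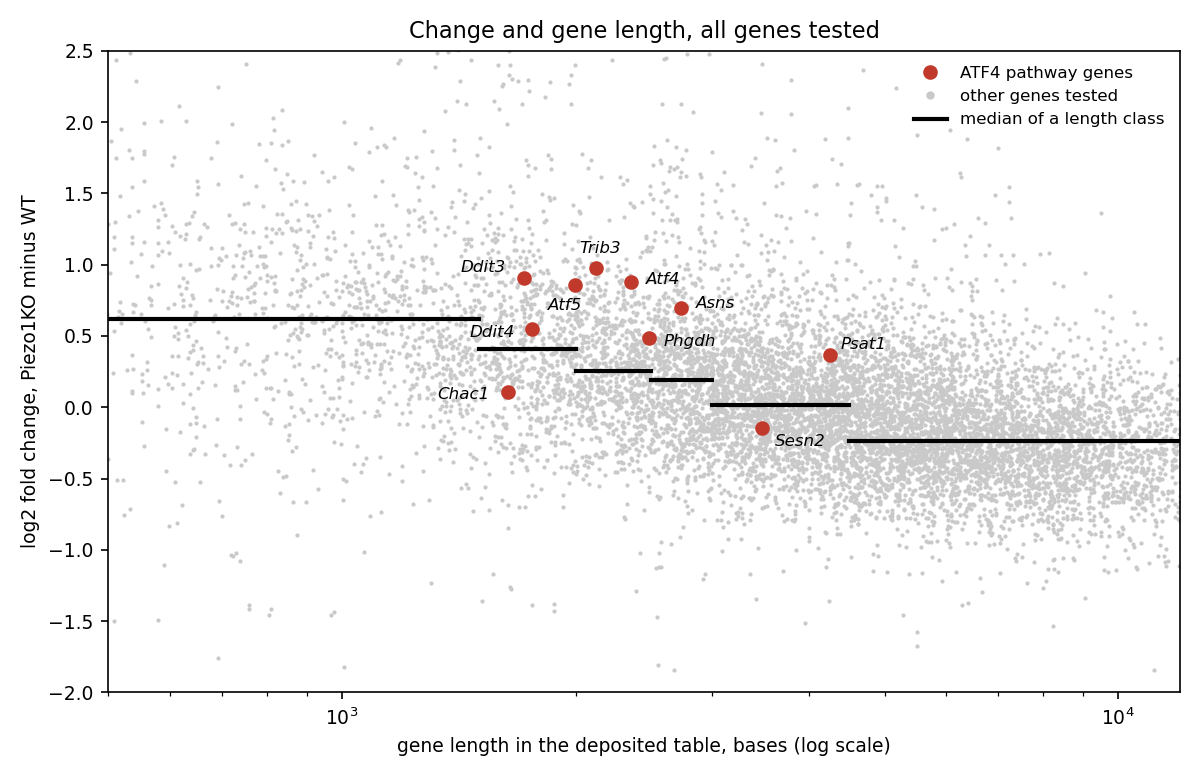
Log2 fold change, Piezo1KO minus WT, against gene length in bases (log axis) for all genes tested (grey, 1144 lie outside the axes), with black lines at the median of each length class and the 10 ATF4 pathway genes in red. The class medians fall with length, and 8 of the red points lie above the median of their class, Chac1 and Sesn2 below it.

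Upstream of ATF4, the 18 genes for eIF2 kinases, eIF2, its exchange factor eIF2B, the eIF2 phosphatase and their regulators showed no common direction. None passed, and the median log2 fold change was -0.085. In both Piezo1KO libraries 5 were higher and 7 lower, which is near the 33.9% and 35.6% of all genes tested. Ppp1r15a, the stress-induced phosphatase subunit GADD34 that restores translation, had an FPKM of 36.5 and 30.8 in Piezo1KO 1 and Piezo1KO 2, against 14.2 and 14.7 in WT 1 and WT 2 (log2 fold change 1.16, limma adjusted p = 0.0595). Eif2ak3, the endoplasmic reticulum kinase PERK, had 4.88 and 4.52 in Piezo1KO, against 9.59 and 9.49 in WT (log2 fold change -0.89, limma adjusted p = 0.0717). Impact, an inhibitor of the amino acid sensor GCN2, had -0.99 (limma adjusted p = 0.0644), and Eif2ak4, which encodes GCN2, had -0.60 (limma adjusted p = 0.148). Eif2b5, the catalytic subunit of eIF2B, had 0.68 (limma adjusted p = 0.118).

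Of 10 listed partners of ATF4 among the basic leucine zipper factors, 8 were tested and none passed. All 8 were higher in both Piezo1KO libraries with the values as deposited, against 33.9% of all genes tested. The overlap of this list was not recounted under other scalings. Atf3, a stress-induced repressor downstream of ATF4, had an FPKM of 49.7 and 36.1 in Piezo1KO 1 and Piezo1KO 2, against 13.1 and 13.3 in WT 1 and WT 2 (limma adjusted p = 0.0531). Cebpb, which is also abundant in myeloid cells, had 67.4 and 31.1 in Piezo1KO, against 11.97 and 11.40 in WT (log2 fold change 1.89, limma adjusted p = 0.117). Jdp2 and Cebpd had log2 fold changes of 0.70 (limma adjusted p = 0.0960) and 0.83 (limma adjusted p = 0.118). Cebpd is the 1 tested partner whose WT mean lay under the filter, so its place among those tested is owed to Piezo1KO.

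Other known targets of ATF4 were read by role. Of 15 tested stress and feedback targets, of 18 listed, 2 passed, both higher, against the 0.731% of all genes that passed as higher. In both Piezo1KO libraries 13 were higher and 1 lower as deposited, against 33.9% and 35.6% of all genes tested. These counts were not repeated under other scalings, and Ppp1r15a is both in this list and in that of the eIF2 genes. Gdf15, a stress-induced cytokine, had an FPKM of 7.47 and 7.42 in Piezo1KO 1 and Piezo1KO 2, against 1.92 and 2.26 in WT 1 and WT 2, and rose by 1.45 on the log2 scale (limma adjusted p = 0.0381). Ndrg1, which hypoxia also induces, had 22.4 and 26.3 in Piezo1KO, against 9.22 and 8.89 in WT, and rose by 1.33 (limma adjusted p = 0.0461). Neither passed without WT 1 or without WT 2, where no gene of all those tested did, nor with the length trend removed, with no filter or when scaled to all assigned reads. Cdkn1a, an inhibitor of the cell cycle that p53 also induces, had 0.93 (limma adjusted p = 0.0898).

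Targets of amino acid supply went both ways, as did all genes tested. Of 18 tested, of 19 listed, none passed, and the median log2 fold change was 0.19. In both Piezo1KO libraries 10 were higher and 5 lower, against 33.9% and 35.6% of all genes tested. Slc38a2 and Slc38a1, neutral amino acid transporters, had log2 fold changes of -0.78 (limma adjusted p = 0.118) and -0.76 (limma adjusted p = 0.132). Slc3a2, the heavy chain of the leucine and cystine exchangers, and Pycr1, an enzyme of proline synthesis, had 0.59 and 0.58 (adjusted p by limma 0.140 for each). Of 13 genes for tRNA synthetases and tRNA export attributed to ATF4, none passed (median 0.17). In both Piezo1KO libraries 8 of them were higher and 1 lower, against the same 33.9% and 35.6% of all genes tested. Sars, the seryl enzyme, led them at 0.90 (limma adjusted p = 0.123), and Cars, Yars and Gars had 0.47, 0.41 and 0.53 (adjusted p by limma 0.134, 0.146 and 0.166).

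The other arms of the unfolded protein response gave a comparison within the same libraries. Of 18 genes of the ATF6 and IRE1 arms none passed, and the median log2 fold change was -0.015. In both Piezo1KO libraries 6 were higher and 7 lower, which is near the 33.9% and 35.6% of all genes tested. Hspa5, the chaperone BiP, had an FPKM of 221 and 194 in Piezo1KO 1 and Piezo1KO 2, against 263 and 244 in WT 1 and WT 2. Ern1, which encodes IRE1, and Sel1l and Edem1 of endoplasmic reticulum degradation had log2 fold changes of -0.53, -0.50 and -0.39 (adjusted p by limma 0.148, 0.148 and 0.159), and Creld2, a secreted chaperone, had 0.70 (limma adjusted p = 0.194). The difference between this list and the 10 ATF4 pathway genes was not tested.

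**Figure D5:**
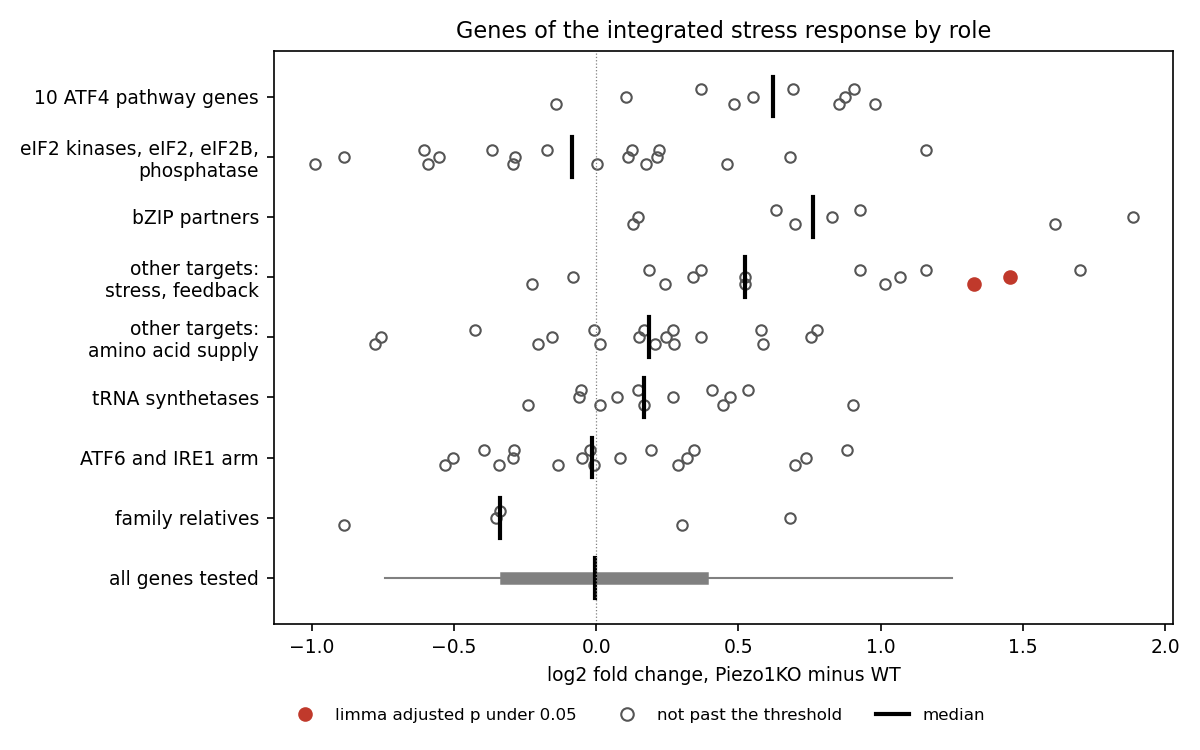
Log2 fold change, Piezo1KO minus WT, of each tested gene by role (points, filled where the limma adjusted p is under 0.05), with a black line at the median of each list, and for all 11085 genes tested the median, the middle 50% (thick line) and the middle 90% (thin line). The medians are 0.62 for the 10 ATF4 pathway genes, 0.76 for the bZIP partners, -0.015 for the ATF6 and IRE1 arm and -0.0059 for all genes tested.

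Close relatives of the 10 genes differed in direction, and none of the 5 tested passed. Trib2 had an FPKM of 1.05 and 1.14 in Piezo1KO 1 and Piezo1KO 2, against 2.82 and 2.92 in WT 1 and WT 2, where its relative Trib3 was higher in both Piezo1KO libraries (log2 fold change of Trib2 -0.89, limma adjusted p = 0.0955). Trib1, which myeloid cells also express, had 7.48 and 4.27 in Piezo1KO, against 3.21 and 3.14 in WT (log2 fold change 0.68, limma adjusted p = 0.175). The sestrins Sesn1 and Sesn3 had log2 fold changes of -0.34 and -0.35, and Chac2 had 0.30 (adjusted p by limma 0.234, 0.222 and 0.377). Ddit4l had 4 reads in each library and was below the filter.

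Across the 4 libraries, the 3 genes nearest to Atf4 among 314 of like level were Eef1g, Clta and Banf1. Likeness was the root mean squared difference of log2(FPKM + 1) after each gene was centred on its WT mean, and it was 0.030, 0.031 and 0.037 log2 units. Eef1g, a subunit of translation elongation factor 1, had an FPKM of 363 and 495 in Piezo1KO 1 and Piezo1KO 2, against 226 and 235 in WT 1 and WT 2. With only 4 libraries of 2 groups, such a likeness is a description of these samples.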

How the data were processed

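RNA was sequenced from 4 libraries. Reads were trimmed with fastp 0.19.7 and counted with featureCounts 1.5.0-p3 against mm10 (GRCm38), tools and build per the submitters' processing notes, while no source used here gives the aligner, annotation or FPKM formula. The authors deposited FPKM, fragments scaled by gene length and library size, as values per gene and library. FPKM times gene length rises in equal steps within a library, and the size of 1 step gave the library total implied by the deposited values. With that total all values became whole reads within 0.05 reads, which were used for read counts, for other scalings and for limma voom.

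Genes averaging 1 FPKM or more were tested with limma 3.58.1 in R 4.3.3 on log2(FPKM + 1) with an intensity trend, Piezo1KO minus WT, two-sided, with Benjamini-Hochberg adjustment over all 11085 and a threshold of 0.05. A fold change is on that log2(FPKM + 1) scale, which understates changes of low genes. Alternatives were other filters, pseudocounts, scalings, a length correction, a replicate block, and leaving out each library.

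The members and lists were chosen with earlier results of these data known. Named besides the 10 genes were Piezo1, up to 4 genes of each list with the smallest unadjusted p, some fixed regulators (Atf3, Ppp1r15a, Eif2ak3, Eif2ak4, Hspa5, Psph), family relatives, and the 3 genes nearest to Atf4. Promoter sequences are from RefSeq, GRCm38.p6.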

Additional observations from a re-analysis of the deposited data

How the results depend on the processing

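None of the 10 genes passed under any alternative run on all 4 libraries. Leaving out 1 library at a time gave 0 to 8 of them higher and 0 to 1 lower, 8 to 10 above WT without overlap (39.1% to 45.4% of all genes), 0 to 3046 genes of all higher and 0 to 2813 lower, and 0 to 35 genes of the pathway lists higher and 0 to 19 lower. The count of all genes higher (81 as reported) was 13 with the length trend removed, 1 with no filter, 125 after quantile normalisation and 277 scaled to all assigned reads. That of genes lower (41) was 10 at a mean FPKM of at least 5, 27 with a pseudocount of 0.1, 5 with the length trend removed, 10 with limma voom, 0 with no filter, 67 after quantile normalisation and 1430 scaled to all assigned reads. Of the genes called, 16.2% were higher in Piezo1KO under that last scaling, and 56.2% were when scaled outside mitochondrial genes. With the replicate block, 192 genes were higher and 72 lower, 4 genes of the pathway lists were higher, and 0 of the 10 genes passed. No label says that the shared title numbers pair the libraries. In the submitters' own names (KO1, KO2, WT2, WT3) the only shared number falls on Piezo1KO 2 and WT 1. The block and the check of deviations used the title numbers alone. The deviations of libraries with the same title number correlated at -0.0329 over 11085 genes, which with 2 libraries a group can neither show nor exclude a pairing. Pathway list genes higher (2) were 1 at a mean FPKM of at least 5 and 0 with the length trend removed, no filter or all assigned reads, and those lower (0) were 1 after quantile normalisation, 13 with all assigned reads and 1 outside mitochondrial genes. The 8 genes above WT without overlap became 2 after quantile normalisation (28.1% of all genes) and 0 with all assigned reads (7.46%). Chac1 turned to -0.40 with the length trend removed, -0.17 after quantile normalisation, -0.68 with all assigned reads, -0.11 outside mitochondrial genes, and -0.022 without WT 2, and leaving out 1 library at a time gave -0.26 to 0.47. Psat1 turned to -0.040 and Phgdh to -0.21 after quantile normalisation, and to -0.43 and -0.32 with all assigned reads, where Ddit4 had -0.25 and Asns -0.11. Sesn2 ran over -0.59 to 0.31 when 1 library was left out, with 0.31 without Piezo1KO 2. The median of all genes was -0.070 after quantile normalisation. Only limma was run, the cause of these shifts was not tested, and 2 libraries a group limit the precision of every value.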
